A study of Hordeum vulgare with 12 samples.

Results

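Core histones are the proteins around which DNA is wound. An H3-H4 tetramer and a pair of H2A-H2B dimers form the nucleosome, so equal numbers of the 4 proteins are needed in each particle. Most of their supply is made while DNA is copied, and growing plant organs therefore carry much histone mRNA. Some variants, such as H2A.Z and H3.3, are placed outside replication, H2A.W marks condensed chromatin in Arabidopsis, H2A.X takes part in DNA repair, and CENH3 replaces H3 at centromeres. In plants histone mRNAs are polyadenylated, which lets poly(A) selection capture them.

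The genes described here are those whose description in the authors' deposited table begins with Histone H2A, H2B, H3 or H4. The words matched 198 of 63658 genes, of which 57 were H2A, 40 H2B, 49 H3 and 52 H4, and 10 had no read in any library. At least 10 reads in 3 or more libraries were found for 172 of them. Of these, 6 were described as enzymes or a chaperone that act on histones, and they are treated apart. The remaining 166 were described as histones, and 165 of them also passed the filter of the test: 45 H2A, 34 H2B, 41 H3 and 45 H4 genes. The H2B gene HORVU.MOREX.r2.4HG0276160.1 was kept but not tested, with 10 reads in 3 libraries and at most 18. Just outside the rule stood the H2A genes HORVU.MOREX.r2.6HG0502850.1 and HORVU.MOREX.r2.UnG0632900.1 and the H3 gene HORVU.MOREX.r2.6HG0455790.1, each with 10 reads in 2 libraries and at most 31, 26 and 15.

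The libraries came from crowns of barley (Hordeum vulgare, cultivar Golden Promise), the 2 mm between roots and stem from which shoot-borne crown roots emerge. Grains spent 3 days in the cold and 3 days germinating, and the seedlings then 3 days in hydroponics, all with 50 µM NPA, a blocker of polar auxin transport, until 50 µM 1-NAA, an artificial auxin, replaced it in the solution. Crowns were taken just before this move (0 h) and at 30 min, 1 h and 3 h, with 3 libraries a time, numbered 1 to 3, and 5 pooled crowns a library. All groups carried the NPA treatment and none was an untreated crown of the later times, so auxin, NPA removal, new solution and time of day cannot be told apart. What a replicate number stands for, beyond a separate biological replicate, is not given in any label. In the model of times alone, the p-values below rest on the spread between pools of the same time. With a term for the replicate number, they rest on the spread left after time and number are fitted. Reads assigned to genes ranged from 16093892 to 34019480 a library, and in bulk tissue fewer cells with a transcript and less transcript per cell cannot be told apart. Markers of the crown's other tissues were present, with 32 of 36 chlorophyll-binding genes tested. Of these, 17 were lower at 3 h than at 0 h in edgeR's quasi-likelihood test at an adjusted p under 0.05. The same test called 2.48% of all tested genes in either direction. It called 0 of 24 xylem, 0 of 31 root tissue, 0 of 11 shoot meristem and 0 of 5 root hair genes. Of 4 phloem and of 17 grain storage protein genes, 1 each was higher and 0 lower.

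Core histone transcripts were abundant and came from many genes. They took 2.45% to 3.54% of the assigned reads of a library. Levels are given as RPKM, reads per kilobase of coding length after scaling to library size. The mean level over 12 libraries exceeded 100 RPKM for 134 of 165 genes and 1000 RPKM for 16, and fell below 10 RPKM for 12. The 10 highest genes held 20.7% of the summed level of all 165.

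**Figure D1:**
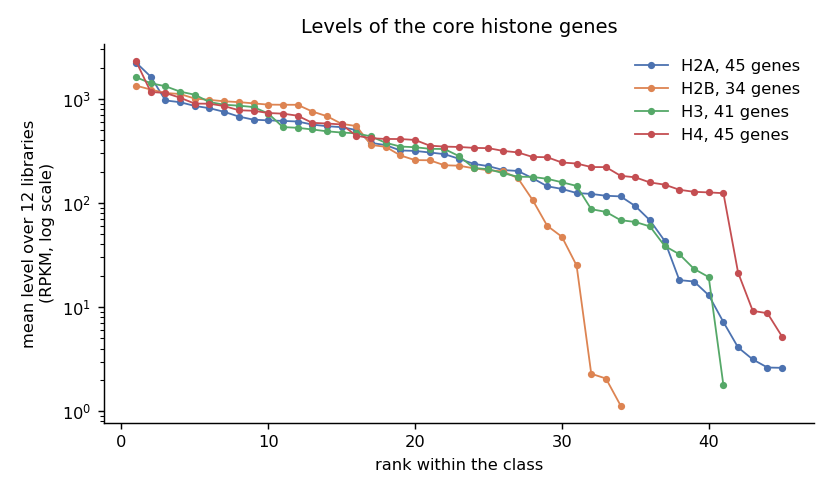
Mean level over 12 libraries (RPKM, log scale) of each core histone gene against its rank within its class; each point is a gene. The 4 curves lie close together over their upper parts, and the highest gene of each class lies between 1340 and 2302 RPKM.

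The highest member was the H4 gene HORVU.MOREX.r2.2HG0153900.1, with a mean of 2302 RPKM. Next came the H2A gene HORVU.MOREX.r2.1HG0004830.1, whose listed Arabidopsis homolog is an H2A.W gene, with a mean of 2232 RPKM. Among H3 genes HORVU.MOREX.r2.1HG0066060.1, with an H3.1 homolog, led at 1614 RPKM. The leading H2B gene was HORVU.MOREX.r2.4HG0282300.1 at 1340 RPKM. No single gene carried its class: the 3 highest held 27.1% of the H2A sum, 20.8% of the H2B sum, 23.9% of the H3 sum and 22.1% of the H4 sum.

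The 4 classes were nearly balanced when their genes were summed. Averaged over 12 libraries, H2A genes made up 23.9% ± 1.34 of the summed core histone level, H2B genes 23.8% ± 0.455, H3 genes 24.4% ± 0.335 and H4 genes 27.8% ± 1.10 (SD, n = 12). H3 and H2B shares varied least from library to library. The H3 sum stood at 0.806 to 0.917 of the H4 sum, and the H2A sum at 0.869 to 1.07 of the H2B sum. The order rests on coding length: counted as CPM with no length, the H4 share was 21.9% and the H2A share 27.0%.

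Gene structure differed between the classes. Of the 45 H4 genes 43 had a coding length of 312 bases, and of the 41 H3 genes 36 had 411 bases. None of the H4 genes had a genomic span longer than its coding length, so none showed an intron in the deposited gene models, against 31 of 45 H2A genes, 10 of 41 H3 genes and 2 of 34 H2B genes. Short genes of equal length can be near-identical copies that share reads, and the multi-mapping and strand settings were not given, so values of single members are uncertain where copies are close.

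The 190 genes described as histones lay on all 7 chromosomes, with 45 on 6H, 43 on 1H, 37 on 7H and 14 to 17 on each other chromosome, and 4 lay on unplaced sequence. Next to another histone gene, with no gene between, stood 64 of them. These formed 39 adjacent pairs, of which 19 joined genes of 1 class and 6 pointed away from each other. The longest run held 6 H2A and 2 H2B genes on chromosome 6H between positions 12599774 and 12757405, in the coordinates of the deposited files. All 8 were analysed, with mean levels from 68.1 RPKM for the H2A gene HORVU.MOREX.r2.6HG0452250.1 to 929 RPKM for the H2A gene HORVU.MOREX.r2.6HG0452280.1.

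After the move to auxin no core histone gene changed in the test. At 30 min 0 of 165 genes passed (0.00401% of all 24920 tested genes did), at 1 h 0 passed (0.0963% of all) and at 3 h 0 passed (2.48% of all), each against 0 h. The same held between the later times, with 0 of 165 for 1 h against 30 min (0% of all), for 3 h against 30 min (2.68% of all) and for 3 h against 1 h (2.08% of all). Over the whole time course 0 of 165 passed, where 2.3% of all genes did. These are edgeR's quasi-likelihood tests with Benjamini-Hochberg adjustment over all tested genes. At an unadjusted p under 0.05 the 3 comparisons with 0 h held 0, 3 and 8 histone genes (4.39%, 5.75% and 10.4% of all genes). The 3 between later times held 0, 5 and 3 (2.95%, 12.6% and 14.9% of all) and the time course 1 (11.4% of all). DESeq2 called 0 of the 165 in each, where it called from 25 (1 h against 30 min) to 1588 (time course) of all tested genes.

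Most histone values nevertheless lay slightly lower at 1 h and 3 h, with no single gene passing. The median log2 fold change of the 165 genes against 0 h was -0.04 at 30 min, -0.18 at 1 h and -0.19 at 3 h. Values below 0 numbered 106, 128 and 149 of 165, beside 52.4%, 50.5% and 50.7% of all tested genes. The class medians at 3 h were -0.16 for H2A, -0.24 for H2B, -0.16 for H3 and -0.20 for H4. Within replicate numbers, 92 of 165 genes lay below their 0 h value at 3 h in all 3 numbers and 4 lay above it in all 3, against 18.1% and 17.1% of all tested genes. For 1 h these counts were 72 and 6 (16.7% and 17.7% of all genes), and for 30 min 7 and 19 (17.3% and 16.2% of all genes). The chlorophyll-binding genes moved over the same interval, from 4109 to 5255 CPM (counts scaled to library size, summed) at 0 h to 2567 to 2937 CPM at 3 h, and their part in the histone values was not tested.

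The sums per class show the same small difference. H4 genes summed to 25638, 24717 and 17304 RPKM at 0 h in replicates 1, 2 and 3, and to 22962, 18706 and 15947 RPKM at 3 h. Each replicate was lower at 3 h, but the groups overlapped because replicate 3 at 0 h lay below replicates 1 and 2 at 3 h. The H2A sums were 18362, 21230 and 15823 RPKM at 0 h and 17345, 17406 and 15275 RPKM at 3 h. Across the 3 replicate numbers the sum of all classes differed by -0.20 ± 0.14 (log2, SD, n = 3) between 3 h and 0 h, and was lower in 3 of 3. The size rests on replicate 2, at -0.36 against -0.14 in replicate 1 and -0.10 in replicate 3, and without a 0 h or 3 h library of replicate 2 the mean was -0.12. Per class the mean of H2A went from -0.14 to -0.07 in this way, that of H2B from -0.22 to -0.13, that of H3 from -0.20 to -0.13 and that of H4 from -0.23 to -0.14. At 30 min the sum of all classes differed by -0.02 ± 0.20 and was lower in 2 of 3, replicate 3 being the one that was higher.

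**Figure D2:**
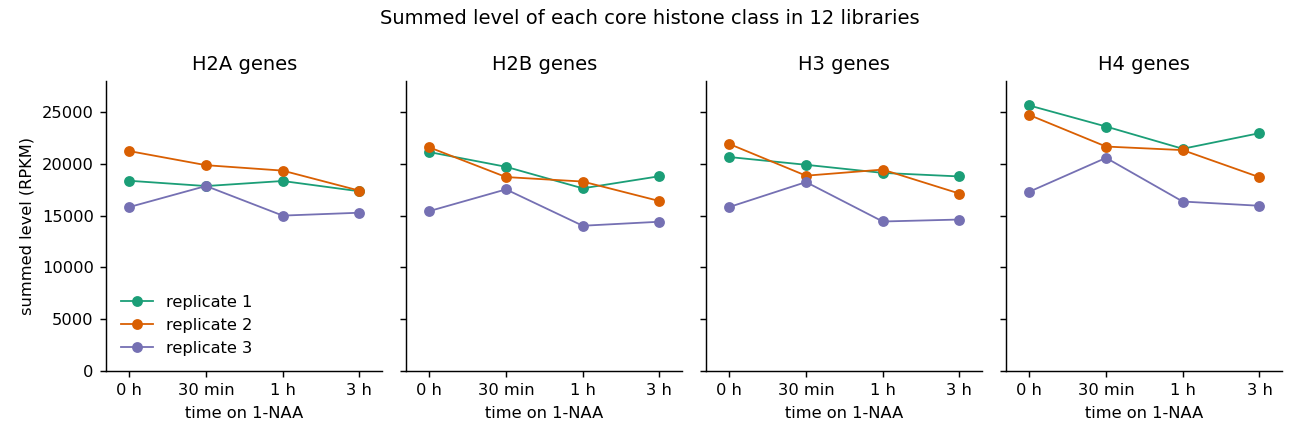
Summed level (RPKM) of the H2A, H2B, H3 and H4 genes in each library against time, with 1 line per replicate number. Replicate 3 lies below replicates 1 and 2 at 0 h, 1 h and 3 h in every class and comes nearest to them at 30 min.

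A single histone gene was higher at 3 h once the replicate number entered the model. HORVU.MOREX.r2.6HG0516440.1 on chromosome 6H, described as H2A.Z-like, has a coding length of 216 bases, short for an H2A. It measured 739, 653 and 518 RPKM at 0 h in replicates 1, 2 and 3. The values were 807, 685 and 561 RPKM at 30 min and 708, 825 and 551 RPKM at 1 h. At 3 h they were 1230, 985 and 749 RPKM. In every replicate number 3 h was the highest of the 4 times, yet the 3 h value of replicate 3 lay within the range of the earlier libraries. Its log2 difference at 3 h was 0.63 with an SE of 0.22, which did not pass (edgeR adjusted p = 0.239). In the model with a replicate block it did pass (log2 0.62, SE 0.11, edgeR adjusted p = 0.00655), as it did for 3 h against 30 min, 3 h against 1 h and the time course. The block was among 17 settings tried beside the main model, and was the only one in which the gene passed over time. It was also the only one with a term for the replicate number, so the other settings do not test the gene with that term. Over these 17, the adjusted p of edgeR or DESeq2 at 3 h against 0 h ranged from 0.00655 to 0.611. The gene whose listed homolog is an H2A.Z gene, HORVU.MOREX.r2.5HG0423430.1, measured 780, 871 and 870 RPKM at 0 h and 742, 902 and 894 RPKM at 3 h, a log2 difference of 0.01 (SE 0.12).

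With the replicate block, 1 of 165 histone genes passed at 3 h against 0 h (5.09% of all genes), 1 at 3 h against 1 h (6.79% of all), 1 over the time course (5.8% of all) and 3 at 3 h against 30 min (6.36% of all). The same H2A.Z-like gene passed in all 4. Against 30 min it was joined by the H3 genes HORVU.MOREX.r2.7HG0548720.1 (log2 -0.38, SE 0.09, edgeR adjusted p = 0.0348) and HORVU.MOREX.r2.7HG0549760.1 (log2 -0.50, SE 0.13, edgeR adjusted p = 0.0426). The latter measured 285, 342 and 307 RPKM at 30 min and 223, 239 and 199 RPKM at 3 h, with no overlap. At 30 min and 1 h against 0 h, and 1 h against 30 min, 0 passed with the block (0.012%, 0.265% and 0% of all genes).

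The largest fitted rise at 3 h belonged to a barely expressed H3.3-type gene, HORVU.MOREX.r2.6HG0453070.1, which was chosen after its values were seen. It measured 1.24, 1.29 and 1.23 RPKM at 0 h and 4.89, 2.25 and 1.49 RPKM at 3 h, a log2 difference of 1.19 with an SE of 0.54 that did not pass (edgeR adjusted p = 0.476).

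More core histone genes differed between replicate numbers than between times, as did more of all tested genes (4947 by replicate number, 574 over the time course). The main test over time had no term for the replicate number. With that term 1 of 165 histone genes passed over the time course (5.8% of all). In a model with a term for time, 79 of 165 core histone genes (47.9%) differed with the replicate number at an adjusted p under 0.05 in edgeR's quasi-likelihood F-test, where 19.9% of all tested genes passed. By class these were 21 of 45 H2A, 14 of 34 H2B, 17 of 41 H3 and 27 of 45 H4 genes. Of the 79, 73 had their lowest mean in replicate 3 and 62 their highest in replicate 1. These positions are given for called histone genes alone, with no share over all genes beside them. DESeq2 called 98. All 27 H4 genes that passed were highest in replicate 1 and lowest in replicate 3. The count depends on single libraries: it was 22 without 30 min replicate 1, 25 without 3 h replicate 1, 26 without 0 h replicate 3, 29 without 0 h replicate 1, 37 without 1 h replicate 3, 38 without 3 h replicate 3 and 51 without 30 min replicate 2. Over all 12 omissions it ranged from 22 to 109 of 165, while that of all tested genes ranged from 1382 to 8926.

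Replicate 3 against replicate 1 carried most of this. There 78 genes passed (23% of all did), 77 lower and 1 higher, against 11.4% lower and 11.6% higher among all tested genes. The median log2 fold change was -0.35, and 140 of 165 values lay below 0 (49.8% of all genes). H4 genes were called lower most often, 34 of 45, with a median of -0.46 and every one of the 45 values below 0. H2A had 16 of 45 lower (median -0.18), H2B 12 of 34 (median -0.28) and H3 15 of 41 (median -0.26), and whether the classes differ from each other was not tested. In 46 of 165 genes all 4 libraries of replicate 3 lay below all 4 of replicate 1, which 8.8% of all genes did. The count of 78 fell to 40 without 3 h replicate 1, to 41 without 0 h replicate 3 and to 46 without 3 h replicate 3, and lay between 52 and 96 without any other library. Among all tested genes 5729 passed with all libraries, 2475 without 3 h replicate 1, 3187 without 0 h replicate 3 and 2871 without 3 h replicate 3. Over all omissions their count ranged from 2261 to 9026.

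**Figure D3:**
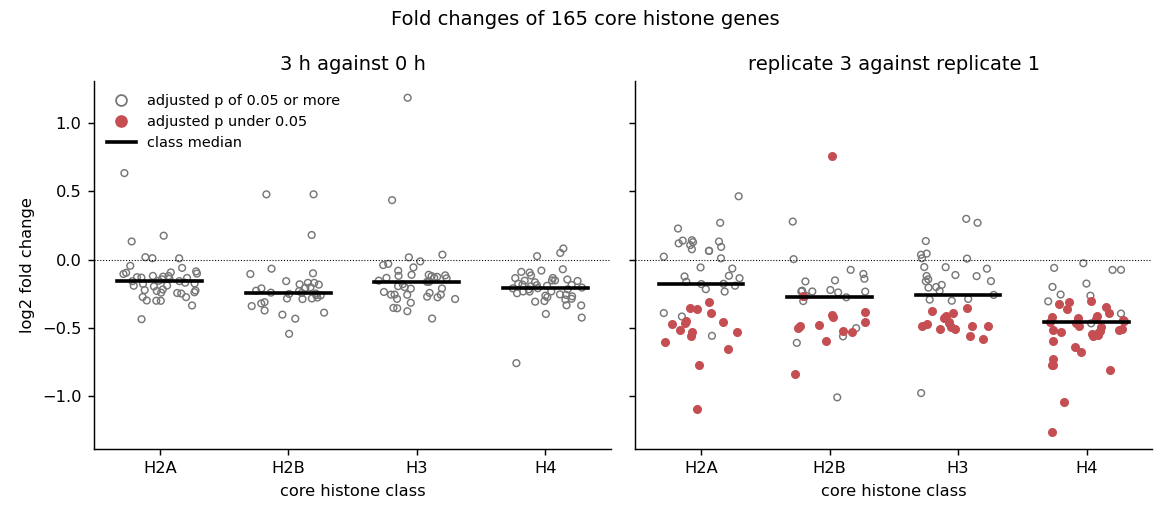
Log2 fold change of each of 165 core histone genes, by class, at 3 h against 0 h (left) and in replicate 3 against replicate 1 (right); filled points have an adjusted p under 0.05 in edgeR's quasi-likelihood test and bars are class medians. No point is filled on the left, and 78 are on the right, 77 of them below 0.

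Single genes show the pattern. At 0 h, 30 min, 1 h and 3 h the H4 gene HORVU.MOREX.r2.6HG0501240.1 measured 1386, 1214, 823 and 1304 RPKM in replicate 1. In replicate 2 it measured 997, 771, 769 and 794 RPKM, and in replicate 3 it measured 671, 799, 611 and 649 RPKM. Every library of replicate 1 was above every library of replicate 3, although the 1 h library of replicate 1 came close. Replicate 3 was lower than replicate 1 (log2 -0.77, SE 0.12, edgeR adjusted p = 0.00261).

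The H2B gene with the smallest p was HORVU.MOREX.r2.4HG0331860.1. In replicate 1 its levels were 1639, 1597, 1112 and 1599 RPKM over the 4 times, and in replicate 2 they were 1187, 993, 1064 and 860 RPKM. In replicate 3 they were 878, 951, 740 and 749 RPKM. The gene was lower in replicate 3 than in replicate 1 (log2 -0.84, SE 0.12, edgeR adjusted p = 0.00161), and the 1 h library was again the lowest of replicate 1.

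The most abundant H3 gene, HORVU.MOREX.r2.1HG0066060.1 of the replication-type H3.1, followed the same order. It measured 1975, 1894, 1792 and 1671 RPKM in replicate 1, 1896, 1640, 1796 and 1475 RPKM in replicate 2, and 1330, 1523, 1178 and 1203 RPKM in replicate 3. Replicates 1 and 2 overlapped, and replicate 3 lay below replicate 1 throughout (log2 -0.49, SE 0.09, edgeR adjusted p = 0.00483). The H4 gene HORVU.MOREX.r2.2HG0153900.1, highest of all, went from 2755, 2581, 2187 and 2321 RPKM in replicate 1 to 1982, 2287, 1830 and 1809 RPKM in replicate 3, where the 2 sets overlap (log2 -0.31, SE 0.09, edgeR adjusted p = 0.0262).

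**Figure D4:**
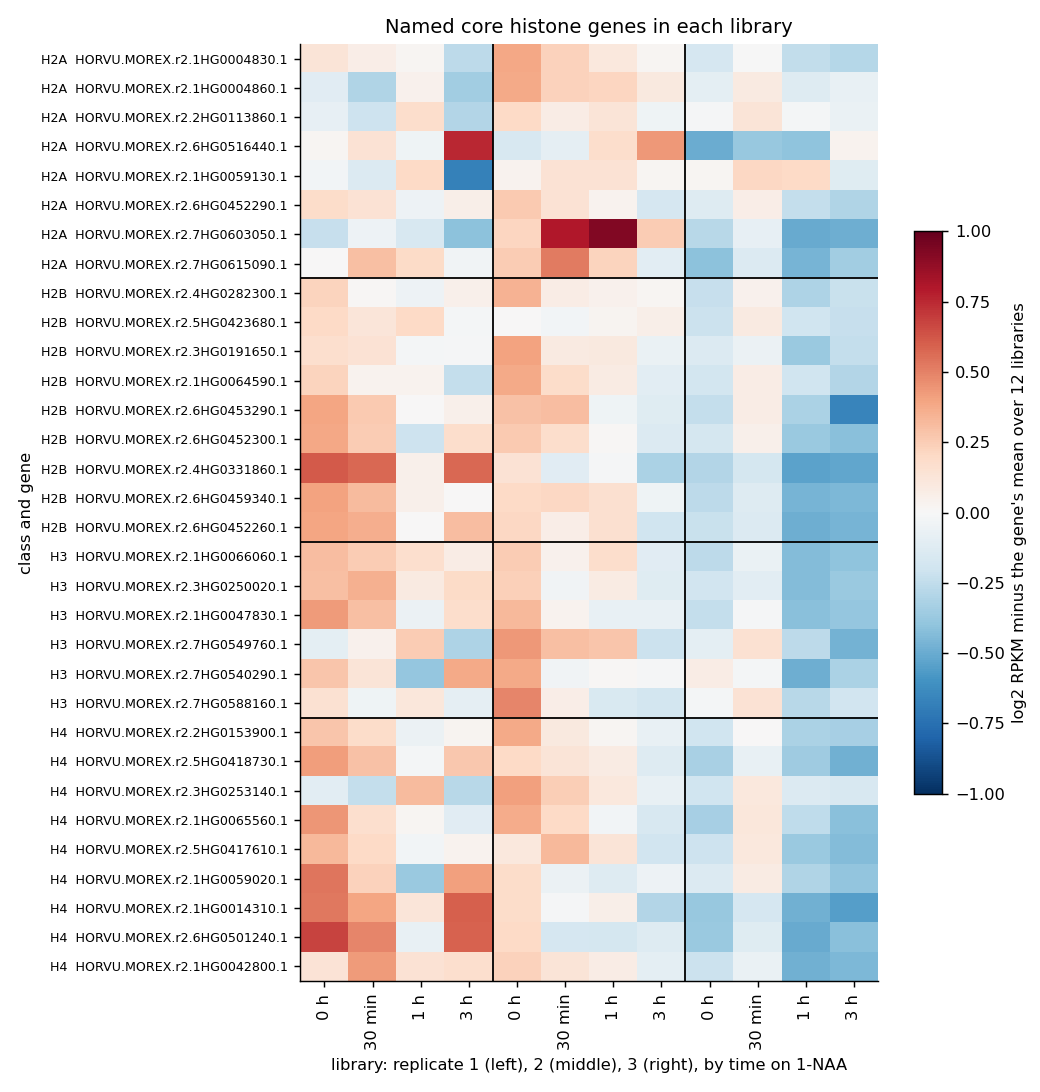
Log2 RPKM of 32 named core histone genes in 12 libraries, minus the gene's mean over the libraries; columns are grouped by replicate number and ordered by time. Most H2B, H3 and H4 rows are highest in replicate 1 or at 0 h of replicate 2 and lowest at 1 h and 3 h of replicate 3, while several H2A rows are highest in replicate 2.

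H2A genes were less uniform. HORVU.MOREX.r2.1HG0004860.1, the second most abundant H2A gene, with an H2A.W homolog, measured 1497, 1313, 1670 and 1270 RPKM in replicate 1 and 2107, 1898, 1878 and 1728 RPKM in replicate 2. In replicate 3 it measured 1515, 1725, 1482 and 1536 RPKM. Its 4 libraries of replicate 2 were above all of replicate 1 (log2 0.41, SE 0.10, edgeR adjusted p = 0.0286), whereas replicate 3 against 1 did not pass (log2 0.13, SE 0.10, edgeR adjusted p = 0.361). HORVU.MOREX.r2.7HG0603050.1, with a canonical H2A homolog, was also highest in replicate 2, at 137, 207, 225 and 141 RPKM, against 101, 114, 106 and 89.2 RPKM in replicate 1 and 97.8, 112, 83.6 and 84.2 RPKM in replicate 3. Replicate 2 exceeded replicate 1 by 0.77 (log2, SE 0.13, edgeR adjusted p = 0.0125).

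**Figure D5:**
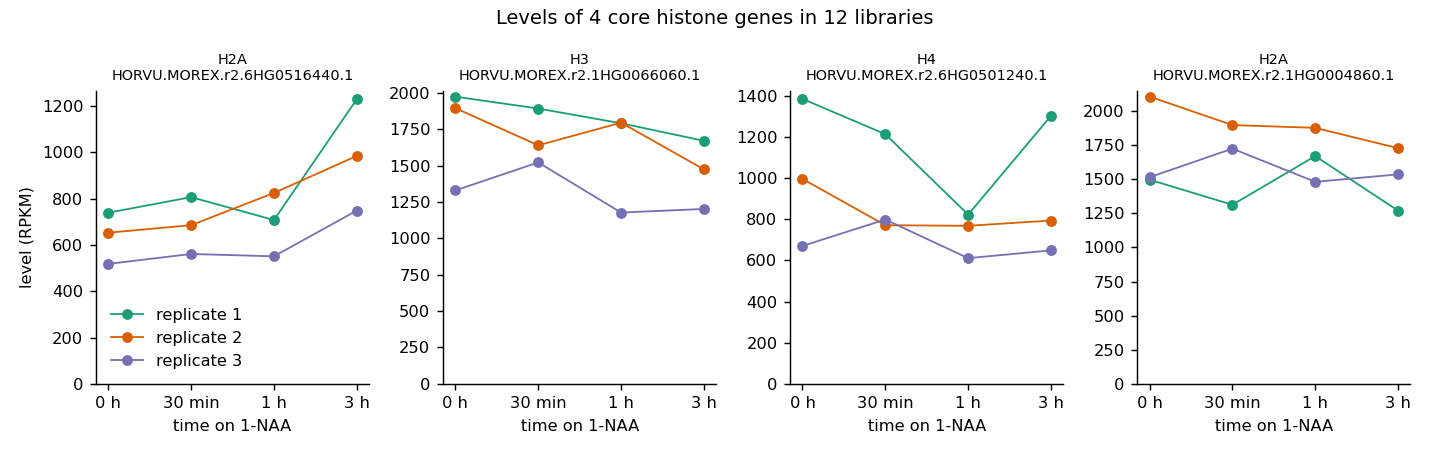
Level (RPKM) in each library against time for the H2A.Z-like gene, an H3.1-type H3 gene, an H4 gene and an H2A.W-type H2A gene, with 1 line per replicate number. The first is highest at 3 h in every replicate, the next 2 are lowest in replicate 3 at 1 h and 3 h, and the last is highest in replicate 2.

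Of the remaining contrasts, replicate 2 against 1 passed for 12 of 165 genes (13.1% of all), 6 higher (6.56% of all) and 6 lower (6.53% of all): H2A contributed 4 of the higher and H4 4 of the lower. Replicate 3 against 2 passed for 6 of 165 (1.74% of all), 5 lower (0.59% of all) and 1 higher (1.15% of all), with 160 of 165 values below 0 (50.2% of all genes), a median of -0.29 and 109 genes at an unadjusted p under 0.05 (13.4% of all). DESeq2 called 32 of the 165 there, and 980 of all tested genes. Both counts depend on single libraries. For replicate 2 against 1 the count was 45 without 1 h replicate 1, 2 without 3 h replicate 2, 1 without 0 h replicate 1, 0 h replicate 2 or 3 h replicate 1, and 0 without 30 min replicate 1 or 2. Among all tested genes 3262 passed there with all libraries and 7814 without 1 h replicate 1. Their count was 543 without 3 h replicate 2, 690 and 692 without 0 h replicate 1 and 2, and 257 without 3 h replicate 1. It was 0 and 32 without 30 min replicate 1 and 2. For replicate 3 against 2 the count of histone genes was 17 without 1 h replicate 1, and 1 when the second or the third replicate of 0 h, 30 min or 1 h was left out. Among all tested genes 433 passed there with all libraries, 620 without 1 h replicate 1, and 104 to 280 in the other omissions just named. The contrasts share libraries and are given side by side. The 1 higher gene in both contrasts with replicate 3 was the H2B gene HORVU.MOREX.r2.6HG0449410.1, of 252 bases and chosen after its values were seen. It measured 76.5, 74.3, 107 and 86.1 RPKM in replicate 3 and 44.7, 52.1, 35.3 and 77.4 RPKM in replicate 1 (log2 0.76, SE 0.21, edgeR adjusted p = 0.0272).

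The balance of the classes moved with the replicate number too. H4 genes made up 29.1% ± 0.798 of the summed level in replicate 1, 27.3% ± 0.324 in replicate 2 and 27.1% ± 0.550 in replicate 3 (SD, n = 4). The H2A share was 22.4% ± 1.09, 24.6% ± 0.625 and 24.8% ± 0.569 in the same order. H2B and H3 shares stayed within 23.0% to 25.0%. The ratio of H4 to H2A was 1.40, 1.32, 1.17 and 1.32 at the 4 times in replicate 1 and between 1.04 and 1.16 in the other 8 libraries. Again the 1 h library of replicate 1 lay nearest to the rest. The summed level of all classes was 80325 ± 4108 RPKM in replicate 1, 79151 ± 8108 RPKM in replicate 2 and 64656 ± 6691 RPKM in replicate 3 (SD, n = 4).

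Replicate 3 was not equally low at all times. It lay below replicate 1 for 136 of 165 genes at 0 h, 109 at 30 min, 159 at 1 h and 131 at 3 h, where 48.5% to 51.1% of all genes did. Its summed level was 64386, 74201, 59794 and 60242 RPKM at these times, so that its 30 min library was the highest of the 4.

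Variant types were read from the listed Arabidopsis homologs, and a difference between types was not tested. In replicate 3 against 1, where 11.4% of all tested genes were lower, so were 9 of 23 H3.1-type genes (median -0.29, all 23 below 0) and 0 of 6 H3.3-type genes (median 0.02, 2 below 0), and 3 of the latter had an unadjusted p under 0.05 (38.7% of all genes). DESeq2 also called 0 of these 6. At a share of 11.4%, counts of 0 among so few genes say little. Also lower were 11 of 24 H2A.W-type genes, 2 of 4 H2A.X-type genes, 6 of 10 H3 genes and 2 of 12 H2A genes with no homolog listed. The H2A.Z-like gene HORVU.MOREX.r2.6HG0516440.1 was lower as well (log2 -0.53, SE 0.10, edgeR adjusted p = 0.00469). The 3 canonical H2A-type genes and the single H2A.Z, H3.3-like and CENH3-type genes gave 0 in edgeR's test, by DESeq2 and at an unadjusted p under 0.05. Genes without a span longer than their coding length were lower in 65 of 122 cases (median -0.39) and those with one in 12 of 43 (median -0.16). The 122 include all 45 H4 genes, and 31 of the 43 are H2A genes. Within H2A, 5 of 14 without and 11 of 31 with a longer span were lower (medians -0.20 and -0.16). Within H3 these were 14 of 31 and 1 of 10 (medians -0.30 and 0.02), and within H2B 12 of 32 and 0 of 2. Structure apart from class was not tested. In the H2A and H2B run on chromosome 6H, 6 of 8 genes were lower, again beside 11.4% of all genes.

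Several technical measures moved with the replicate number, and their part in the result was not tested. Assigned reads were 16093892 to 22710691 in replicate 1, 23519719 to 27851950 in replicate 2 and 23737664 to 34019480 in replicate 3. TMM factors, which scale the libraries to each other, were 0.958 to 1.02, 0.961 to 1.00 and 1.02 to 1.06. Short genes as a whole were also lower in replicate 3: of 6032 other tested genes with a coding length up to 600 bases, 19.9% were called lower and 6.08% higher than in replicate 1, with a median of -0.21. At 3 h against 0 h the median of these short genes was 0.04, above 0, where the histone median was -0.19. Of the 165 histone genes 163 were this short. Grain storage protein transcripts, which are made in the seed, changed with the replicate number in 12 of 17 tested genes. The share among all tested genes was 19.9%. In replicate 3 against 1, 7 of the 17 were higher and 6 lower (11.6% and 11.4% of all genes). The 17 genes summed to 507 to 888 CPM in replicate 1, 422 to 560 in replicate 2 and 350 to 431 in replicate 3. Of the 80 genes listed, 38 had no read. Genes described as CASP-like or Casparian strip proteins were listed as markers of root tissue. In replicate 3 against 1, 0 of 31 were higher and 5 lower (11.6% and 11.4% of all genes), with a median of -0.30. With the replicate number 16.1% of them changed, beside 19.9% of all genes. The 31 genes summed to 459 to 535 CPM in replicate 1, 438 to 494 in replicate 2 and 417 to 447 in replicate 3. Of the other tissue markers, in the same contrast, 2 of 32 leaf genes were higher and 3 lower (median -0.01), 3 of 24 xylem genes higher and 1 lower (median -0.03), 3 of 11 shoot meristem genes higher and 0 lower (median 0.26), 1 of 5 root hair genes higher and 0 lower (median 0.32), and 0 of 4 phloem genes passed (median 0.06).

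Other genes of chromatin and DNA copying are set beside these counts, and a difference from the histones was not tested. Of 72 tested genes for DNA replication, such as MCM helicase subunits and PCNA, 4 changed with the replicate number (5.56%, below the 19.9% of all genes), and replicate 3 against 1 had 3 higher and 3 lower with a median of 0.06. In that contrast 11.6% of all tested genes were higher and 11.4% lower, which the following counts are to be read against. Genes listed as mitotic, which include kinesins and A- and B-type cyclins, had 17 of 95 higher and 6 lower (median 0.24). Histone chaperones, which carry and deposit histones, had 1 of 16 higher and 1 lower (median 0.16). Histone deacetylases had 1 of 20 higher and 2 lower, acetyltransferases 3 of 13 higher and 0 lower, methyltransferases 4 of 64 higher and 6 lower, and demethylases 2 of 11 higher and 1 lower. The list of E2F factors, regulators of S phase genes, and retinoblastoma proteins had 0 of 9 higher and 2 lower. At 3 h against 0 h 1 acetyltransferase and 1 mitotic gene were higher, and 0 genes of these lists passed at 30 min or 1 h.

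Linker histones H1, which bind DNA between nucleosomes, were higher in replicate 3 than in replicate 1 where they passed. All 8 described H1 genes were tested, and 4 were higher and 0 lower in replicate 3 against 1 (11.6% and 11.4% of all genes), with a median of 0.29. HORVU.MOREX.r2.5HG0432240.1 was higher by 0.83 (log2, SE 0.16, edgeR adjusted p = 0.00648) and HORVU.MOREX.r2.5HG0432260.1 by 0.66 (log2, SE 0.15, edgeR adjusted p = 0.0117). The summed H1 level was 1818 to 3055 CPM in replicate 1, 3318 to 4343 in replicate 2 and 3061 to 3677 in replicate 3. At 3 h against 0 h 0 of 8 passed (smallest edgeR adjusted p = 0.704), with 7 of 8 values below 0 and a median of -0.14. The difference between H1 and core histone genes was not tested.

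The 6 kept genes whose descriptions name an enzyme or chaperone are given apart. Of the 4 kept H2A deubiquitinases, which by description remove ubiquitin from H2A, 2 were higher in replicate 3 than in replicate 1. HORVU.MOREX.r2.2HG0175580.1 was higher by 0.80 (log2, SE 0.15, edgeR adjusted p = 0.00504) and HORVU.MOREX.r2.7HG0587480.1 by 0.88 (log2, SE 0.23, edgeR adjusted p = 0.0217). In edgeR's test 0 of the 6 were lower in that contrast, with 4 of 6 at an unadjusted p under 0.05. Of all tested genes 11.6% were higher and 11.4% lower there, and 38.7% had an unadjusted p under 0.05. DESeq2 called 2 of the 6 higher and 1 lower, and 6696 of all tested genes in either direction. At 3 h against 0 h 0 of 6 passed in either tool (2.48% of all in edgeR's test), and 0 had an unadjusted p under 0.05 (10.4% of all). At such shares, counts of 0 among 6 genes say little.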

How the data were processed

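Raw read counts per gene in 12 libraries were deposited by the authors without normalization. Tools in the submitters' processing notes are HISAT2 2.0.5 and Subread 1.5.2, beside bcl2fastq and SAMtools, and the labels give a directional poly(A) kit and paired reads of 150 bases. Build, strand and multi-mapping settings: not given in the sources used here. Descriptions, positions, homologs and coding lengths came from the authors' deposited table, and 98.9% of the lengths are multiples of 3. Sequences are not shown, since 0 member identifiers matched the RefSeq table used here.

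Counts were analysed with edgeR 4.0.16 and limma 3.58.1 in R 4.3.3 (figures: matplotlib 3.10.9, Python 3.11.15). Of 63658 genes 24920 passed filterByExpr (minimum count 10, minimum total 15), and libraries were scaled by TMM. Quasi-likelihood tests with Benjamini-Hochberg adjustment over all 24920 genes used a model of 4 times (8 residual degrees of freedom), or of time and replicate number (6), with calls at an adjusted p under 0.05. Standard errors were derived from the fold change and its F statistic. RPKM divided counts by TMM-scaled library size and coding length. Of an H2A or H3 gene the variant type was taken from its listed Arabidopsis homolog. The floor of 3 counts was 0.0849 to 0.193 CPM, depending on the library, and covers counting error alone. Procedures were tested on simulated data. DESeq2 1.42.0 and the settings of the closing section were alternatives.

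Replicate numbers were checked by the correlation of residuals: 17 of 18 same-number pairs exceeded 0.1 (0.0958 to 0.674), the exception being a pair of 1 h and 0 h, and other pairs ranged from -0.593 to 0.268. No 2 replicates were duplicates (16.1 to 88.3 for chi-square per degree of freedom). The named genes are, per class, the 3 highest in mean RPKM, the 3 with the smallest p over time and the 3 with the smallest p over replicate number, 32 in all. The members, lists and tests were chosen with earlier results of these data known. The chaperone was set apart after descriptions were read.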

Additional observations from a re-analysis of the deposited data

How the results depend on the processing

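The counts of core histone genes passing over time were 0 in every comparison and in the time course with RLE scaling, DESeq2, no filter on low counts, a filter of 10 reads in 3 libraries and each library left out in turn (range 0 to 0). The replicate block gave 1 at 3 h against 0 h, 3 at 3 h against 30 min, 1 at 3 h against 1 h and 1 over the time course. With no term for time, 46 histone genes passed for the replicate number (2994 of all tested genes did). For replicate 2 against 1 there were 6 (1556 of all), and for replicate 3 against 2 there was 1 (174 of all). DESeq2, which kept the term for time, called 32 histone genes for replicate 3 against 2 (980 of all). Leaving out each library gave 22 to 109 for the replicate number, 40 to 96 for replicate 3 against 1, 0 to 45 for replicate 2 against 1 (45 without 1 h replicate 1, 0 without 30 min replicate 1 or 30 min replicate 2) and 1 to 17 for replicate 3 against 2 (17 without 1 h replicate 1). In the same order the counts of all tested genes ranged from 1382 to 8926, 2261 to 9026, 0 to 7814 and 104 to 628. The cause was not tested. CPM, counts scaled without length, gave shares of 27.0% for H2A, 25.7% for H2B, 25.3% for H3 and 21.9% for H4, since the coding lengths differ, and without the highest member of each class the H2B share was 24.5%. The log2 difference of replicate 3 minus 1 stayed below 0 in every class under each scaling and omission tried, and with the total of assigned counts it was -0.09 for H2A and -0.34 for H4.

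Some named genes changed sign when 1 library was left out, each in a contrast that it did not pass with all libraries. For 3 h against 0 h the log2 ranges were -0.28 to 0.0059 for HORVU.MOREX.r2.1HG0004860.1, -0.37 to 0.077 for HORVU.MOREX.r2.7HG0603050.1, -0.29 to 0.033 for HORVU.MOREX.r2.7HG0615090.1, -0.16 to 0.041 for HORVU.MOREX.r2.5HG0423680.1, -0.62 to 0.051 for HORVU.MOREX.r2.4HG0331860.1, -0.57 to 0.073 for HORVU.MOREX.r2.1HG0014310.1 and -0.50 to 0.13 for HORVU.MOREX.r2.6HG0501240.1. For replicate 3 against 1 they were -0.20 to 0.0027 for HORVU.MOREX.r2.7HG0603050.1 and -0.13 to 0.13 for HORVU.MOREX.r2.3HG0253140.1. Depth limits the members under 10 RPKM most.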
